A study of Mus musculus with 14 samples.

Results

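GABA-A receptor subunits are described here for mouse granule neuron progenitors (GNPs), which divide in the outer layer of the young cerebellum before they become granule neurons. The 7 genes Gabra2, Gabra3, Gabra5, Gabra6, Gabrb1, Gabrb2 and Gabrd were taken by name from the 41381 genes of the expression table, without use of their values. Levels are given as TPM, a share of all transcripts that is corrected for transcript length. Of the 7 genes, 5 reached 1 TPM or more in 4 libraries or more and entered the test across all genes. Gabra5 and Gabra6 reached that level in 1 library each and were tested in a wider set of genes. Further subunit genes were not analysed here, except those named below as other genes of the pathway.

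RNA sequencing was performed on 14 libraries of total RNA from freshly isolated GNPs at postnatal day 7, to ask how the loss of the chromatin remodeller Chd7 changes their transcripts. The 5 libraries labelled WT came from mice carrying floxed Chd7 alleles without Cre (Chd7 f/f). The 5 libraries labelled Het came from Atoh1-Cre::Chd7 f/+ mice and the 4 labelled Hom from Atoh1-Cre::Chd7 f/f mice, so that Cre was active in the granule cell lineage of both mutant groups. The labels give the strain of all groups as C56Bl6/J, whereas the methods of the study name C57BL/6N. GNPs were enriched on a percoll gradient without a sort, and the sex of the pups was not distinguished. Atoh1-Cre may recombine less efficiently in the posterior lobe, so loss of Chd7 in the Hom group may be incomplete, and the Het group keeps 1 allele without floxed sites. Sequencing took place in 2 batches. Batch 1 comprised 8 libraries, namely replicates 1 to 3 of the WT group, 1 to 3 of the Het group and 1 and 2 of the Hom group, and batch 2 comprised the remaining 6. This assignment comes from the methods of the study, while the form of the label of Het 3 groups it with the batch 2 libraries, so Het values within batches are also given with Het 3 in batch 2. The labels do not say whether the libraries of a group came from separate animals, so p-values measure the spread between these libraries, which may be technical.

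The GABA-A receptor is a ligand-gated chloride channel built from several subunits, usually of the α and β families together with a γ or a δ subunit. In immature neurons, a high internal chloride makes the channel depolarising, and the change to inhibition follows when the potassium chloride cotransporter KCC2 (Slc12a5) lowers chloride. In the granule cell lineage, α2 and α3 (Gabra2 and Gabra3) are known as subunits of early stages, whereas α6 (Gabra6) and δ (Gabrd) mark the mature granule neuron, where they form extrasynaptic receptors that carry a tonic current.

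The subunit genes lie on 5 chromosomes (GRCm38, GENCODE M21, full gene span from the annotated start to end, introns included). The α subunit genes Gabra2 (ENSMUSG00000000560, chr5:70957597-71095849, minus strand) and Gabra3 (ENSMUSG00000031343, chrX:72432681-72656848, minus strand) span 138.3 and 224.2 kb. Gabra5 (ENSMUSG00000055078, chr7:57407672-57510059, minus strand), which encodes α5, a subunit found mainly outside synapses, spans 102.4 kb. Gabra6 (ENSMUSG00000020428, chr11:42306437-42321072, minus strand) spans 14.6 kb and lies in one cluster with the β2 gene Gabrb2 (ENSMUSG00000007653, chr11:42419757-42629028, plus strand, 209.3 kb). The δ gene Gabrd (ENSMUSG00000029054, chr4:155384980-155398112, minus strand) spans 13.1 kb. The β1 gene Gabrb1 (ENSMUSG00000029212, chr5:71658113-72149037, plus strand) spans 490.9 kb and starts head to head with the α4 gene Gabra4 on the other strand. The annotated spans of Gabrb1 and Gabra4 share 196 bases, of which 46 are exonic in both, and reads from those bases cannot be assigned to one of them where strand is not used.

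Promoters of the 3 genes whose levels set WT 1 to 3 apart from all other libraries, Gabra2, Gabrb1 and Gabra6, are printed to show how differently their start regions are composed (RefSeq, GRCm38.p6, windows of 300 bases around the start, 5′ to 3′ on the strand of the gene). Capitals mark TTGGC or its reverse complement GCCAA, the half-site of nuclear factor I. The Gabra2 promoter is chr5:71095800-71096099 (minus strand), the Gabrb1 promoters are chr5:71657671-71657970 (first) and chr5:71699682-71699981 (second, both plus strand), and the Gabra6 promoter is chr11:42321023-42321322 (minus strand).
Gabra2: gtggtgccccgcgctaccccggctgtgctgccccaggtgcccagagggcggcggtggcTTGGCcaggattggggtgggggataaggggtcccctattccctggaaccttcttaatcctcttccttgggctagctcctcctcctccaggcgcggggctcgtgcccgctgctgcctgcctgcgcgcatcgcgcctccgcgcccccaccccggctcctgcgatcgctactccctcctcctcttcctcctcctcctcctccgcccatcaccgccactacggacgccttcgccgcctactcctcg
Gabrb1 first: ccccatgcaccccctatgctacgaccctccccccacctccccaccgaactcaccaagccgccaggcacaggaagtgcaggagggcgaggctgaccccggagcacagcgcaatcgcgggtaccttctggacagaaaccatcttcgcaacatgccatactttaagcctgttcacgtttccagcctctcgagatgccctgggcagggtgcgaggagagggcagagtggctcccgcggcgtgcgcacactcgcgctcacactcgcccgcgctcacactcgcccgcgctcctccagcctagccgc
Gabrb1 second: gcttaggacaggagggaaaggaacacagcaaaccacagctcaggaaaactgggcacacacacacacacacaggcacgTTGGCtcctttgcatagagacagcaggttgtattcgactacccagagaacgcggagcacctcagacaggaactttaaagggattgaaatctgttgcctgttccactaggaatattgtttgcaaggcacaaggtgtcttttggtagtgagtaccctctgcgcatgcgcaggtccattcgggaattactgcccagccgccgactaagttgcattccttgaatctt
Gabra6: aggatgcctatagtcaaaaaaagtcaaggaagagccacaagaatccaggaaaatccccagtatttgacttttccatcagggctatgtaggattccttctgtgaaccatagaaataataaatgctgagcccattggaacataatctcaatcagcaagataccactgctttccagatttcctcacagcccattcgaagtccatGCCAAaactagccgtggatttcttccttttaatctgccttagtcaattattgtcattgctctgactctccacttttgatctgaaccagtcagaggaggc

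The GC content was 70.0% in the Gabra2 window, 66.0% and 50.3% in the first and second Gabrb1 windows and 42.0% in the Gabra6 window, beside a median of 52.7% over all 32851 promoters of the table. The half-site lay 192 bases before the start in Gabra2, 173 bases before the second start in Gabrb1 and 49 bases before it in Gabra6, and it was not in the first Gabrb1 window. This 5-letter motif occurs in 46.7% of all promoters on either strand, so its presence does not set these genes apart. The full nuclear factor I palindrome, both half-sites with 5 bases between them (0.0365% of promoters), and the E-box CAGCTG (16.3%) were in none of the 10 windows of the 6 subunit genes that matched the table. The E-box CAGATG (17.2%) was in the Gabra5 window alone. The TATA box motif TATAAA (13.6%) lay on the strand of the gene 30 bases before the first of the 3 Gabrb2 starts. Near Gabra3 the motif was found on the opposite strand only, where the strand of the gene reads TTTATA. That site lay 123 and 235 bases before the Gabra3 starts, the same site seen from 2 starts.

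Whole-series facts that touch these genes are few. The markers of GNPs summed to between 3625.9 and 4678.1 TPM over 14 genes, and all 14 passed the filter. Chd7 itself was at 120.81, 151.68 and 132.41 TPM in WT 1 to 3 and at 203.25 and 272.06 TPM in WT 4 and 5. Chd7 in the Het libraries was at 136.77 to 181.3 TPM and in the Hom libraries at 125.63 to 185.39 TPM. In Hom the log2 change from WT was 0.41 (SE 0.14, limma adjusted p = 0.2) within batch 1. Within batch 2 it was −0.77 (SE 0.15, adjusted p = 0.035), where 1.74% of all genes were called. With both batches in the model it was −0.11 (SE 0.2, adjusted p = 0.862). From batch 1 to batch 2 Chd7 rose by 0.8 within WT (SE 0.14, adjusted p = 0.011, 9.07% of all genes called). Within Hom it changed by −0.38 (SE 0.15, adjusted p = 0.24). Hom thus lay below WT in batch 2 and, without passing the test, above WT in batch 1. The batch 1 values thus go against the genotype labels, and gene-level TPM also counts reads from exons that Cre does not remove. The study also measured Chd7 by qRT-PCR and immunostaining, which were not analysed here. Every direction given below is one between libraries labelled WT, Het and Hom. The depth of single libraries is not recorded in TPM, so no interval from counting was computed, and a low value cannot be told from absence.

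Across the 14 libraries Gabra2 was the most abundant of the 7 subunit transcripts and Gabra6 the least. Median levels on the TPM scale, which corrects for transcript length, were 9.72 for Gabra2, 5.54 for Gabra3, 3.3 for Gabrb2, 1.99 for Gabrb1, 0.75 for Gabrd, 0.46 for Gabra5 and 0.08 for Gabra6. Gabra2 exceeded Gabra3 in 14 of 14 libraries, Gabra3 exceeded Gabrb2 in 14 of 14, Gabrb2 exceeded Gabrb1 in 13 of 14 and Gabrb1 exceeded Gabrd in 14 of 14. The lower end of the order was less fixed, since Gabrd exceeded Gabra5 in 11 and Gabra5 exceeded Gabra6 in 10 of 14 libraries. Within WT the median was 0.87 for Gabra6 and 0.6 for Gabra5, the reverse order. Over all libraries the ranges of neighbours overlapped at every step of the order. Among the genes tested, ranked by median TPM, Gabra2 lay at percentile 39.9, Gabra3 at 31.2, Gabrb2 at 24, Gabrb1 at 16.7 and Gabrd at 3.7.

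The summed TPM of the 7 subunit genes was 27.84, 33.62 and 30.6 in WT 1 to 3 and 18.11 and 15.26 in WT 4 and 5. It ranged from 17.44 to 24.56 in Het and from 19.18 to 25.25 in Hom. The 3 batch 1 WT libraries thus held the highest sums and a batch 2 WT library the lowest, with the mutant libraries between them. Gabra2 made up between 34.9% (Hom 4) and 54.9% (WT 3) of the sum. Gabra3 made up 16.8% to 20.2% in WT 1 to 3 and 20.8% to 30.9% elsewhere.

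**Figure D1:**
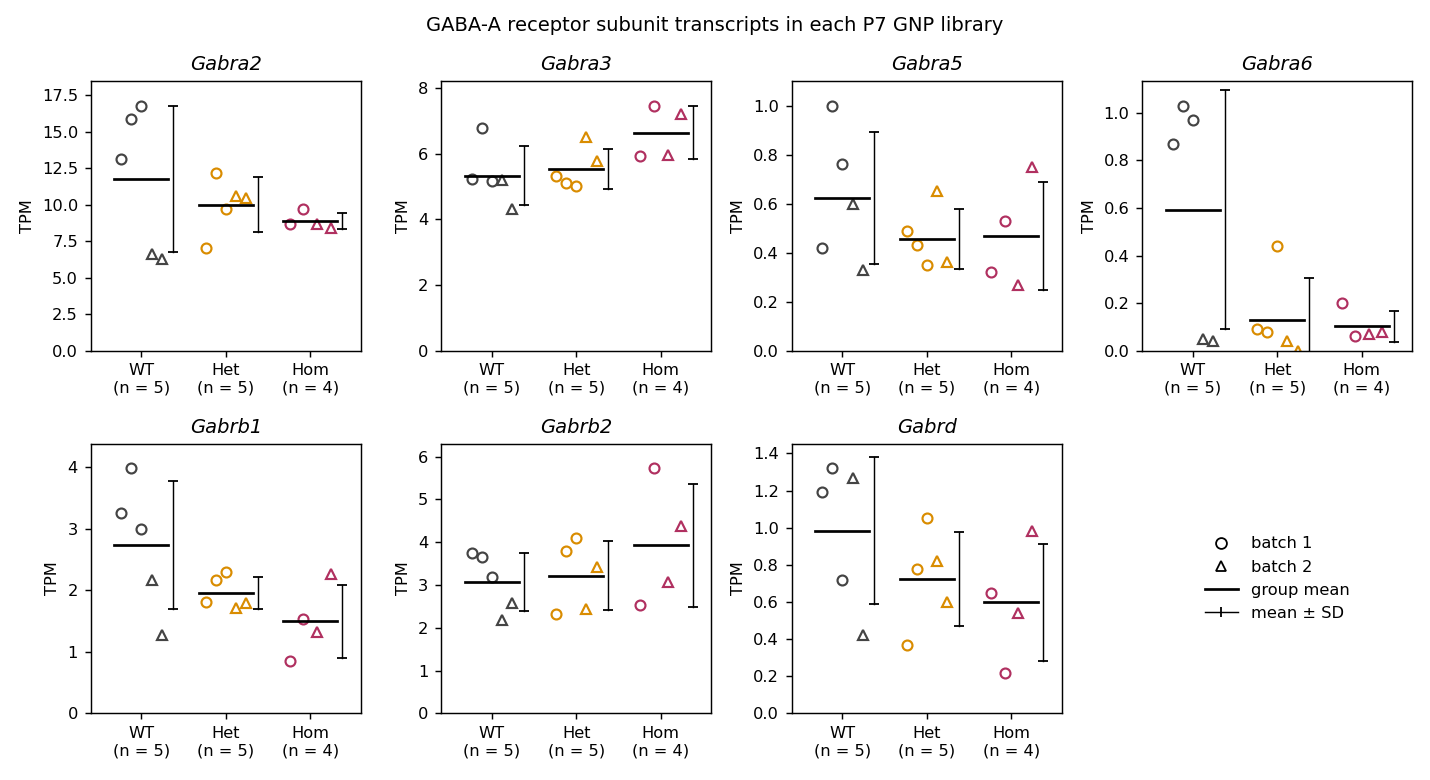
TPM of each of the 7 subunit genes (vertical axes, each starting at 0) in every library, by labelled genotype, with circles for batch 1, triangles for batch 2, a thick line for the group mean and a thin bar for the mean ± SD (cut off at 0 for Gabra6 in Het). The 3 WT circles lie above all other libraries for Gabra2, Gabra6 and Gabrb1, whereas the groups overlap for Gabra5, Gabrb2 and Gabrd.

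Among the subunits of early stages, Gabra2 was measured at 13.13, 15.86 and 16.81 TPM in WT 1 to 3 and at 6.65 and 6.3 TPM in WT 4 and 5. The Het libraries held 7.03, 12.21 and 9.72 TPM in batch 1 and 10.61 and 10.49 TPM in batch 2, and the Hom libraries 8.71 and 9.72 TPM in batch 1 and 8.7 and 8.41 TPM in batch 2. All mutant libraries were therefore below every WT library of batch 1 and above every WT library of batch 2, a pattern found in 0.404% of the 17325 genes tested. On the log2(TPM + 1) scale, with batch in the model, Gabra2 differed from WT by −0.23 in Hom (SE 0.23) and −0.13 in Het (SE 0.22). Neither change passed the test (limma, adjusted p = 0.706 for Hom and 0.957 for Het).

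Within batch 1 Gabra2 differed from WT by −0.67 (SE 0.19) in Hom and −0.63 (SE 0.17) in Het, and within batch 2 by 0.35 (SE 0.21) and 0.63 (SE 0.21). None of these 4 changes passed the threshold of 0.05 after adjustment over all genes (limma, adjusted p between 0.125 and 0.595). Such calls were made for 1.46% of all genes in Hom and 0.0115% in Het within batch 1, and for 1.74% and 0% within batch 2. The effect differed between the batches by 1.02 for Hom (SE 0.28, limma adjusted p = 0.144) and by 1.26 for Het (SE 0.27, adjusted p = 0.445). For these differences 0 of the 5 subunit genes were called, beside 0.0115% of all genes for Hom and 0.00577% for Het. With Het 3 in batch 2 the Het change was −0.65 (SE 0.19) in batch 1 and 0.59 (SE 0.19) in batch 2, and their difference 1.24 (SE 0.27, adjusted p = 0.223). At an unadjusted p under 0.05 the counts were 2 of 5 for Hom (Gabra2 and Gabrb1), beside 17.2% of all genes, and 1 of 5 for Het (Gabra2), beside 9.3%.

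Gabra3, the X-linked α3 gene, varied less between libraries than Gabra2. It was measured at 5.23, 6.78, 5.15, 5.18 and 4.3 TPM in WT 1 to 5, at 5.33, 5.1, 5.01, 6.5 and 5.76 TPM in Het 1 to 5 and at 5.92, 7.46, 5.96 and 7.2 TPM in Hom 1 to 4. The Hom libraries lay above every WT library but WT 2, and within batch 2 both mutant groups lay above WT, as for 27% (Hom) and 16.2% (Het) of the genes tested. Neither the Hom change of 0.28 (SE 0.13) nor the Het change of 0.05 (SE 0.12) passed the test (limma, adjusted p = 0.35 and 0.97). By exact permutation of genotypes within batch, the two-sided p for Hom was 0.05, where the smallest that 60 arrangements allow is 0.0167. The Hom difference was 0.2 (SE 0.17) in batch 1 and 0.4 (SE 0.18) in batch 2.

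Gabra5 stayed near the lower end of the measured range, at 0.42, 1.0, 0.76, 0.6 and 0.33 TPM in WT, 0.49, 0.43, 0.35, 0.65 and 0.36 TPM in Het and 0.32, 0.53, 0.27 and 0.75 TPM in Hom. The groups overlapped throughout. In the wider set of 24470 genes, which needed any TPM above 0 in 4 libraries, Gabra5 differed from WT by −0.14 in either mutant group (SE 0.13 for both, limma adjusted p = 0.744 for Hom and 0.918 for Het).

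Of the subunits of mature granule neurons, Gabra6 showed the sharpest split. It was at 0.87, 1.03 and 0.97 TPM in WT 1 to 3 and at 0.05 and 0.04 TPM in WT 4 and 5. The Het libraries held 0.09, 0.08 and 0.44 TPM in batch 1 and 0.04 and 0.0 TPM in batch 2, and the Hom libraries 0.2 and 0.06 TPM in batch 1 and 0.07 and 0.08 TPM in batch 2. Only WT 1 to 3 approached 1 TPM, and outside them Het 3 was highest, followed by Hom 1.

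In the wider gene set Gabra6 fell in Hom against WT within batch 1 (log2 change −0.79, SE 0.12, limma adjusted p = 0.0162), where 0.45% of the genes were called lower. In Het within batch 1 it did not pass the threshold (−0.71, SE 0.11, adjusted p = 0.0786), and within batch 2 the changes were 0.04 (SE 0.13) in Hom and −0.04 (SE 0.13) in Het. With Het 3 in batch 2 the Het change was −0.85 (SE 0.14, adjusted p = 0.138) in batch 1 and 0.13 (SE 0.14) in batch 2. With both batches in the model it was not called in Hom (−0.43, SE 0.15, adjusted p = 0.245, beside 1.61% of the wider set) or in Het (−0.44, SE 0.14, adjusted p = 0.643, beside 0%). The exact permutation p, unadjusted for the 7 genes, was 0.1 for Hom and 0.0333 for Het, and it was above 0.05 for the other 6 genes in Het. On the log2(TPM + 1) scale a change between values below 1 TPM is understated.

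Gabrd, whose δ subunit joins α6 in the mature granule neuron, was measured at 1.19, 1.32, 0.72, 1.27 and 0.42 TPM in WT 1 to 5. The Het libraries held 0.37, 0.78, 1.05, 0.82 and 0.6 TPM and the Hom libraries 0.65, 0.22, 0.54 and 0.98 TPM. The groups overlapped, although both Hom libraries of batch 1 lay below every WT library of that batch, as for 15.3% of the genes tested. Limma gave a Hom change of −0.31 (SE 0.21, adjusted p = 0.54) and a Het change of −0.19 (SE 0.20, adjusted p = 0.913). Gabrd passed the filter with exactly 4 libraries, of which 3 were WT, and its values carry the same limit as other low transcripts.

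Gabrb2, which encodes the β2 subunit that accompanies many α subunits in mature neurons, was measured at 3.75, 3.65, 3.19, 2.19 and 2.59 TPM in WT 1 to 5. The Het libraries held 2.32, 3.8, 4.11, 2.45 and 3.42 TPM and the Hom libraries 2.53, 5.73, 3.06 and 4.38 TPM. The highest value was in Hom 2 and the groups overlapped. Limma gave a Hom change of 0.27 (SE 0.20, adjusted p = 0.597) and a Het change of 0.05 (SE 0.19, adjusted p = 0.986).

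Gabrb1, which encodes the β1 subunit, was measured at 3.25, 3.98 and 3.0 TPM in WT 1 to 3 and at 2.17 and 1.28 TPM in WT 4 and 5. The Het libraries held 1.81, 2.16, 2.29, 1.71 and 1.79 TPM and the Hom libraries 0.85, 1.53, 1.32 and 2.27 TPM. No library outside WT 1 to 3 exceeded 2.29 TPM, and Hom 1 was lowest. Limma gave a Hom change of −0.54 (SE 0.22, adjusted p = 0.26) and a Het change of −0.29 (SE 0.20, adjusted p = 0.874). Within batch 1 the change in Hom was −1.02 (SE 0.24, adjusted p = 0.0685) and within batch 2 it was 0.03 (SE 0.26). The Hom effect differed between the batches by 1.06 (SE 0.35, limma adjusted p = 0.178).

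With both batches in the model, 0 of the 5 subunit genes tested were called by limma in Hom against WT, beside 2.68% of all genes. Against the same WT libraries 0 of 5 were called in Het (0.00577% of all genes), and 0 of 5 in Hom against Het (0.427%). At an unadjusted p under 0.05 the counts were 1 of 5 (Gabrb1) in Hom, where 14.9% of all genes reached it, and 0 of 5 in Het (6.08%) and in Hom against Het (6.18%). Between the batches 0 of 5 were called (13.5% of all genes), and 0 of 5 had an unadjusted p under 0.05 (28.9%). A Kruskal-Wallis test on values with the batch term removed, compared with all 252252 arrangements of the libraries, put 0 of 5 under 0.01. Beside this were 2.21% of all genes with Hom lower and 2.42% with Hom higher. The smallest p of this test was 0.0691, for Gabra3. The batch term was fitted together with genotype and the arrangements ignored batch, so the p-values of this test are approximate. The standard errors of 0.13 to 0.23 for Hom against WT leave room for changes of a size like those within batch 1, so the data do not show that the levels were equal.

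**Figure D2:**
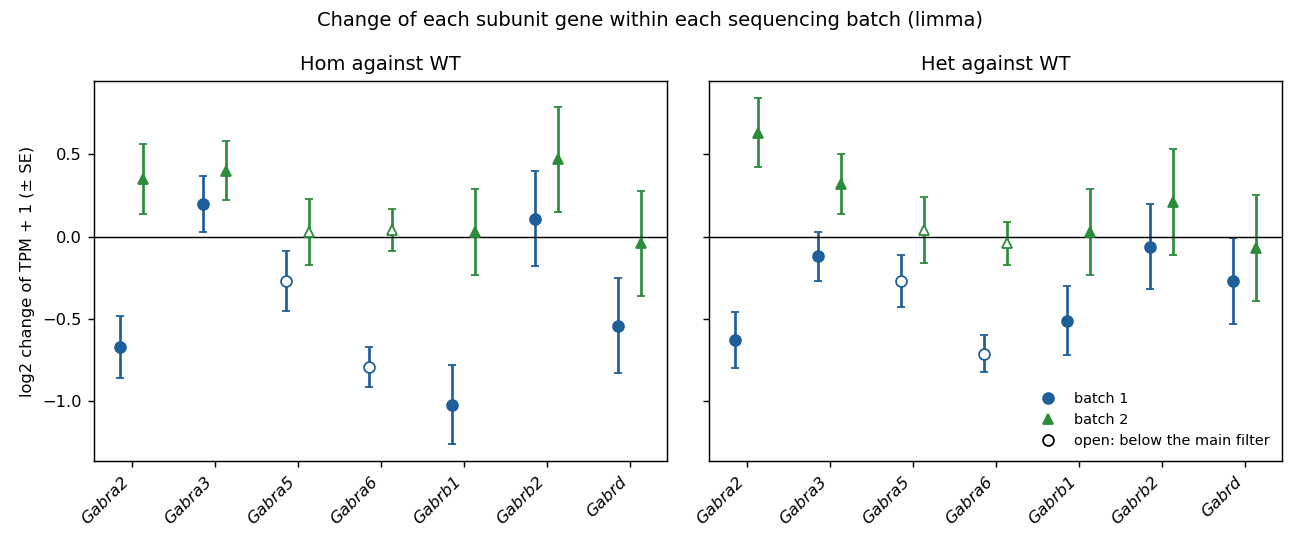
Log2 change of TPM + 1 (vertical axis, ± SE from limma) of each subunit gene in Hom (left) and Het (right) against WT within batch 1 (blue circles) and batch 2 (green triangles), with open symbols for the genes below the main filter. In Hom, Gabra2 lies at −0.67 in batch 1 and 0.35 in batch 2 and Gabrb1 at −1.02 and 0.03, while Gabra3 lies above 0 in both batches.

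The split of the WT group was described by a contrast chosen after seeing the data, batch 2 against batch 1 within each genotype. Within WT, Gabra2 fell by 1.12 on the log2 scale (SE 0.19, limma adjusted p = 0.0106), and it was the 1 of 5 subunit genes called, beside 9.07% of all genes. In the wider gene set, where 2.01% were called lower, Gabra6 also fell, by 0.9 (SE 0.12, adjusted p = 0.00724). Gabrb1 differed by −0.71 (SE 0.24, adjusted p = 0.0824) and Gabrb2 by −0.42 (SE 0.29, adjusted p = 0.38). Within Het and within Hom 0 of 5 subunit genes were called (0.0577% and 0.075% of all genes), and 0 of 5 had an unadjusted p under 0.05 (10.9% and 16.7%). WT 1 to 3 stood above each of the 11 other libraries for 3 of the 7 genes, Gabra2, Gabra6 and Gabrb1, and 1.26% of the wider gene set showed this.

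Markers of some other cell types also set WT 1 to 3 apart, as these 3 genes did. The 8 Purkinje cell markers summed to 79.6 to 107.2 TPM in WT 1 to 3 and to 32 to 32.1 TPM in WT 4 and 5. In Het the sums were 33.2 to 58.9 TPM in batch 1 and 28.9 to 34.5 TPM in batch 2, and in Hom they were 41.0 to 47.3 TPM and 27.4 to 34.9 TPM. WT 1 to 3 thus stood above all other libraries, and 5 of the 7 Purkinje markers tested were lower in batch 2 than in batch 1 within WT (median log2 change −1.45 over the 7, beside 3.71% of all genes called lower). Pcp2, which is restricted to Purkinje cells in the cerebellum, was at 27.84, 30.62 and 18.53 TPM in WT 1 to 3, at 15.1 TPM in Het 3 and at 5.16 TPM in Hom 1, the libraries that also led in Gabra6. It was at 0.0 TPM in Het 5, the library in which Gabra6 was at 0.0 TPM. Foxp2 and Rora, of the same 8 markers, did not follow this. Foxp2 was at 4.86, 5.16 and 7.04 TPM in WT 1 to 3 and at 4.97 and 7.63 TPM in WT 4 and 5. Rora was at 9.15, 9.1 and 8.05 TPM in WT 1 to 3 and at 9.49 and 10.88 TPM in WT 4 and 5. Both were highest in Hom 2, at 10.53 and 16.8 TPM, where Gabra6 was at 0.06 TPM. Among the mutant libraries Gabra2 was highest in Het 2, at 12.21 TPM, where the Purkinje sum was 33.2 TPM. In Het 3, where that sum was 58.9 TPM, Gabra2 was at 9.72 TPM and Gabrb1, at 2.29 TPM, was highest of the mutant libraries.

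The 8 markers of astroglia and Bergmann glia summed to 1186.4 to 1858.8 TPM in WT 1 to 3 and to 416.5 to 884.9 TPM in WT 4 and 5. The Het sums were 663.8 to 1160.1 TPM (batch 1) and 590.0 to 691.3 TPM (batch 2), and the Hom sums 538.6 to 548.0 TPM (batch 1) and 336.5 to 693.4 TPM (batch 2). WT 1 to 3 again held the highest sums, and 1 of 8 markers was called lower in batch 2 within WT (3.71% of all genes called lower). The summed TPM of the 12 granule neuron markers ran the other way within WT, with 1183.7 to 1231.8 TPM in WT 1 to 3 and 1522.1 to 1558.3 TPM in WT 4 and 5. The median log2 change over the 12 was 0.14, with 2 called higher and 0 lower (5.37% of all genes called higher). In Hom the 12 markers summed to 919.3 to 971.7 TPM in batch 1 and 1026.7 to 1233.6 TPM in batch 2. Against WT 4 of 12 were called lower and 1 higher in Hom (2.68% of all genes called). The summed GNP markers too were lower in WT 1 to 3, at 3625.9 to 3832.0 TPM, than in WT 4 and 5, at 4330.7 to 4678.1 TPM. In batch 2 within WT 6 of 14 were called higher and 1 lower (5.37% and 3.71% of all genes).

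The 5 endothelial markers set the same 3 WT libraries and Het 3 apart in the opposite sense. They summed to 20 to 27.2 TPM in WT 1 to 3 and to 17.0 TPM in Het 3. The other 10 libraries held 93.1 to 384.8 TPM. Between the batches within WT 0 of 5 passed the test (median log2 change 1.81, beside 9.07% of all genes called). The 8 markers of inhibitory interneurons summed to 217.4 to 261.5 TPM in WT 1 to 3 and 323.9 to 380.5 TPM in WT 4 and 5. Of these, 1 of 8 was called higher in batch 2 (5.37% of all genes called higher). Sums of the 7 oligodendroglial, 5 microglial and 4 unipolar brush cell markers overlapped between both sets of WT libraries. Of the 15 that passed the filter, 0 were called between these sets (9.07% of all genes). The part of these cell types in the levels of Gabra2, Gabrb1 and Gabra6 was not tested. In such bulk libraries fewer cells of a type and less RNA per cell cannot be told apart. The values within batch 2 are those without the 3 WT libraries concerned.

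**Figure D3:**
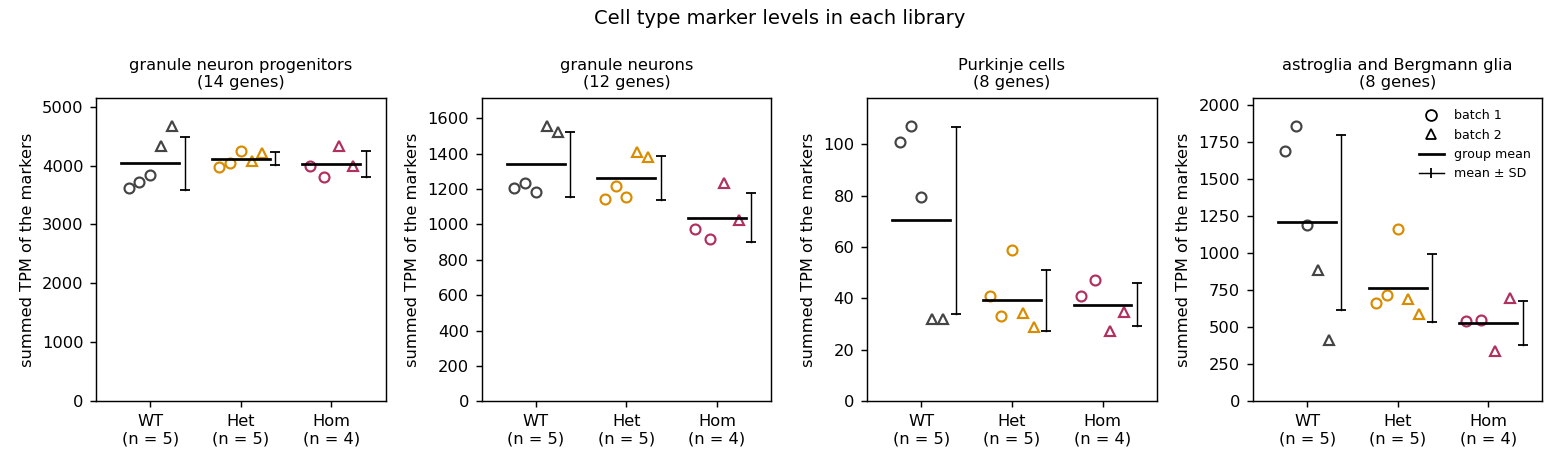
Summed TPM (vertical axes, starting at 0) of the markers of GNPs, granule neurons, Purkinje cells and astroglia in every library, with circles for batch 1, triangles for batch 2, a thick line for the group mean and a thin bar for the mean ± SD. The 3 WT circles lie at 79.6 to 107.2 TPM for Purkinje cells, above all other libraries, while their GNP markers, at 3625.9 to 3832.0 TPM, lie below those of WT 4 and 5, at 4330.7 to 4678.1 TPM.

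Immature and mature subunits were compared within each library as the mean log2(TPM + 1) of Gabra6, Gabrb2 and Gabrd minus that of Gabra2, Gabra3 and Gabra5. This difference was −0.89, −1.19, −1.25, −1.1 and −1.09 in WT 1 to 5. It was −1.31, −1.21, −0.84, −1.49 and −1.3 in the 5 Het libraries and −1.22, −1.33, −1.23 and −1.18 in the 4 Hom libraries. The mean of the immature subunits was higher in all 14 libraries and the groups overlapped. This did not hold for each gene, since Gabra5, at a median of 0.46 TPM over all libraries, lay below Gabrb2 (3.3 TPM) and Gabrd (0.75 TPM). The group means were −1.1 ± 0.14 in WT (SD, n = 5), −1.23 ± 0.24 in Het (SD, n = 5) and −1.24 ± 0.06 in Hom (SD, n = 4). With Gabrb1 among the immature subunits they were −1.0 in WT, −1.06 in Het and −1.0 in Hom. The differences between the means were not tested. Both sets of subunits were higher in WT 1 to 3 than in WT 4 and 5. The mature mean was 1.28 to 1.48 and the immature mean 2.32 to 2.68 in WT 1 to 3, beside 0.8 to 0.98 and 1.9 to 2.08 in WT 4 and 5. Single mutant libraries reached the levels of WT 1 to 3, with a mature mean of 1.31 in Het 3 and an immature mean of 2.39 in Het 4. With a pseudocount of 0.1, which gives low values more weight, the difference split the WT libraries, at −0.98, −1.44 and −1.58 in WT 1 to 3 and −1.91 and −1.98 in WT 4 and 5.

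The subunit genes varied together only in part. Over the 14 libraries, after removal of the batch term, Pearson's r was 0.71 between Gabrb1 and Gabrd, 0.63 between Gabra2 and Gabrb1 and 0.52 between Gabra3 and Gabrb2, and 0.41 or less for the other 7 pairs. These values describe libraries that share genotype, cell composition and normalisation. The 3 genes most like each subunit gene over the same 14 libraries were Fam107a (r = 0.951), Dbndd2 (r = 0.941) and Pla2g7 (r = 0.927) for Gabrb1. For Gabrd they were Gdf10 (r = 0.906), a gene of Bergmann glia, Atp5o (r = 0.893) and 2810459M11Rik (r = 0.893). Gabra3 was most like Nt5e (r = 0.893), Sgce (r = 0.886) and Mir3473g (r = 0.857), the last with a median of 0.0 TPM. Gabrb2 was most like 1700048O20Rik (r = 0.899), Vamp4 (r = 0.887) and Ghdc (r = 0.88). The closest to Gabra2 were Gm20634 (r = 0.841), Lair1 (r = 0.831) and Lst1 (r = 0.83).

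The other genes of the GABA pathway were read from a list of 31, of which 26 passed the filter. In Hom against WT 1 of the 26 was called lower and 1 higher (2.68% of all genes called), and 7 had an unadjusted p under 0.05 (14.9% of all genes). In Het against WT and in Hom against Het 0 of 26 were called (limma, beside 0.00577% and 0.427% of all genes), with 2 and 3 of 26 at an unadjusted p under 0.05 (6.08% and 6.18%). The median log2 change in Hom was 0.08 for these 26 genes and −0.23 for the 5 subunit genes, beside 0.02 over all genes tested.

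Among the 7 other subunit genes of the list, Gabra4 and Gabrg1 passed the filter. Gabra4, the head-to-head neighbour of Gabrb1, was at 10.64, 13.35 and 11.32 TPM in WT 1 to 3, at 8.84 and 7.39 TPM in WT 4 and 5, at 8.15 to 10.48 TPM in Het and at 6.66 to 9.51 TPM in Hom. WT 1 to 3 were again the highest libraries, as for 1.26% of the wider gene set, with WT 1 at 10.64 TPM just above Het 3 at 10.48 TPM. Its log2 change in Hom was −0.24 (SE 0.13, limma adjusted p = 0.434), and within WT the change between batches was −0.49 (SE 0.17, adjusted p = 0.0928). Gabre, which encodes the ε subunit, was at 0.39, 0.17, 0.26, 0.29 and 0.31 TPM in WT, at 0.34, 0.3, 0.27, 0.21 and 0.36 TPM in Het and at 0.49, 0.47, 0.54 and 0.53 TPM in Hom. It did not pass the filter, and every Hom library was above every WT and Het library, as for 0.494% of the wider gene set. In that set it was not called in Hom against WT (0.23, SE 0.06, limma adjusted p = 0.116).

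Of the 12 scaffold and trafficking genes, 1 fell in Hom, where 2.68% of all genes were called. Plcl1, which encodes PRIP-1, a protein that binds GABARAP and β subunits, was at 21.24, 20.69, 17.77, 17.18 and 24.45 TPM in WT, at 12.77, 17.32, 13.14, 14.28 and 15.4 TPM in Het and at 9.82, 12.44, 11.7 and 9.77 TPM in Hom. Every Hom library lay below every Het and every WT library, as for 0.658% of the genes tested, and the log2 change in Hom was −0.83 (SE 0.13, limma adjusted p = 0.00254). It was of like size in both batches, at −0.79 (SE 0.18) and −0.88 (SE 0.20). Gabarap, which helps carry the receptor to the surface, was the most abundant gene of this group, at 276.68 to 345.6 TPM. It fell in Hom within batch 1 by 0.29 (SE 0.06, limma adjusted p = 0.0474) and differed by 0.02 (SE 0.07) within batch 2. The scaffold gephyrin (Gphn), at 36.89 to 45.21 TPM, differed by 0.13 (SE 0.06) in Hom.

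Of the 3 chloride transporters, 0 were called in Hom against WT (limma, 2.68% of all genes), and 1 had an unadjusted p under 0.05 (14.9% of all genes). Slc12a5 was at 3.56, 4.69 and 2.53 TPM in WT 1 to 3 and at 1.15 and 0.94 TPM in WT 4 and 5. The Het libraries held 1.02, 1.43, 2.68, 0.77 and 1.34 TPM and the Hom libraries 0.88, 1.07, 1.14 and 1.18 TPM. WT 1 to 3 and Het 3 were thus the high libraries, the same 4 that were highest in Gabra6. Slc12a5 fell within WT from batch 1 to batch 2 (log2 change −1.14, SE 0.29, limma adjusted p = 0.0337), and in Hom against WT it differed by −1.19 (SE 0.29, adjusted p = 0.0792) within batch 1 and 0.08 (SE 0.31) within batch 2. Slc12a2, the NKCC1 importer that raises chloride in immature neurons, was at 44.28 to 59.58 TPM and differed by 0.13 (SE 0.07) in Hom.

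Of the 7 genes for GABA synthesis, transport and breakdown, 0 were called in Hom (limma, 2.68% of all genes), and 2, Slc6a11 (0.48, SE 0.19) and Abat (0.2, SE 0.08), had an unadjusted p under 0.05 (14.9%). Gad1, which makes GABA in inhibitory neurons, was at 34.17 to 86.73 TPM, with its highest value in Hom 2. Of both GABA-B receptor genes, Gabbr2 rose in Hom (limma, beside 2.68% of all genes called). It was at 20.75, 22.72, 23.59, 36.36 and 27.23 TPM in WT, at 26.09, 25.83, 29.64, 34.31 and 32.02 TPM in Het and at 34.52, 35.89, 48.18 and 32.84 TPM in Hom. Every Hom library was above every WT library but WT 4, and the log2 change was 0.5 (SE 0.12, limma adjusted p = 0.0385). Within batch 1 it was 0.63 (SE 0.16, adjusted p = 0.0862) and within batch 2 it was 0.33 (SE 0.17, adjusted p = 0.332). From batch 1 to batch 2 within WT, Gabbr2 differed by 0.48 (SE 0.16, adjusted p = 0.0793). Its partner Gabbr1, at 116.49 to 169.22 TPM, differed by −0.23 (SE 0.08, adjusted p = 0.2).

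**Figure D4:**
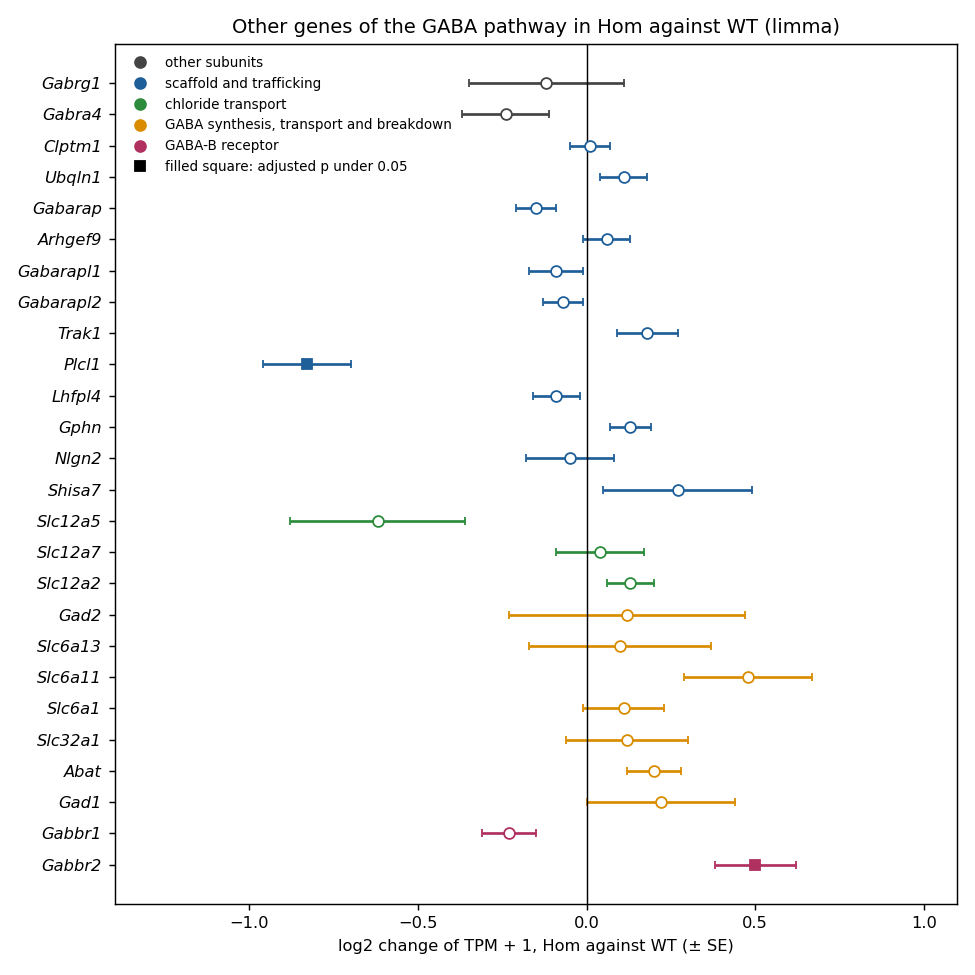
Log2 change of TPM + 1 in Hom against WT (horizontal axis, ± SE from limma, batch in the model) for the 26 other genes of the GABA pathway that passed the filter, coloured by role, with filled squares for an adjusted p under 0.05. Plcl1 lies at −0.83 and Gabbr2 at 0.5, and the other 24 genes are drawn open.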

How the data were processed

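RNA-seq was analysed for 14 libraries. The authors deposited TPM values per gene for all libraries in 1 table. They had mapped single-end reads of 50 bases to the mm10 transcriptome with Bowtie and estimated expression with RSEM at default settings (Bowtie 1.0.0 and RSEM 1.2.15 in the submitters' processing notes). Columns headed as controls were taken as WT of the same number. TPM keeps no depth, and each column summed to between 999999.14 and 1000000.79.

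Values were tested as log2(TPM + 1) with limma 3.58.1 in R 4.3.3, with genotype and sequencing batch as terms, an intensity trend, two-sided p-values and Benjamini-Hochberg adjustment over the 17325 genes that reached 1 TPM in 4 libraries or more, or, for Gabra5 and Gabra6, over the 24470 genes above 0 TPM in that many libraries. A gene was called at an adjusted p under 0.05. Differences between batches were tested as interaction terms, and single genes also by exact permutation within batch. The study's ComBat correction was not run. Python 3.11.15 was used elsewhere. The fit was tested on simulated data.

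The subunit genes and lists were chosen with earlier results of these data known. Named genes were the 7 subunit genes, Chd7, pathway genes called in a genotype contrast or highest in their role, and the 3 genes with the highest correlation to each subunit gene. Slc12a5, Abat, Slc6a11, Gabrg1, Gabre, Gphn, Pcp2, Foxp2, Rora and the neighbour Gabra4 were named after their values were seen where they fall outside this rule. Alternatives changed the pseudocount, filter, scaling, batch term and libraries. Of the pathway list, 1 gene is not reported here. Replicate numbers were not used as pairs in the main fit, and whether they pair the libraries could not be decided.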

Additional observations from a re-analysis of the deposited data

Results flagged for a closer look

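Gabra6 was at 0.44 TPM in Het 3, far above the other 4 Het libraries (0.0 to 0.09 TPM), and at 0.2 TPM in Hom 1, far above the other 3 Hom libraries (0.06 to 0.08 TPM). Both libraries stood out by a gap test within their group (Dixon, 95% level), which was applied to 21 groups of values and marks about 1 in 20 by chance. Pcp2, a Purkinje cell marker, was also highest of its group in Het 3, at 15.1 TPM, and in Hom 1, at 5.16 TPM. Of the same markers, Foxp2 was instead highest of the Het group in Het 1, at 6.4 TPM, and Rora in Het 2, at 13.31 TPM. Both were highest of the Hom group in Hom 2, at 10.53 and 16.8 TPM. The part of Purkinje cells in the Gabra6 value was not tested.

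The difference of Gabra2 from WT had opposite directions in the batches. Every mutant library lay below the WT libraries in batch 1 and above them in batch 2, as for 0.404% of the genes tested. The tested difference between the batches was 1.02 on the log2 scale for Hom and 1.26 for Het (limma interaction, adjusted p = 0.144 and 0.445). From batch 1 to batch 2 Gabra2 changed by −1.12 within WT (SE 0.19), 0.15 within Het (SE 0.19) and −0.09 within Hom (SE 0.21). For Gabra6 in Hom the difference between the batches was 0.83 (adjusted p = 0.159). Its opposite direction in batch 2 rests on values of 0.04 to 0.08 TPM.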

How the results depend on the processing

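The counts of 0 called subunit genes in Hom against WT, Het against WT, Hom against Het, batch 2 against batch 1 and both differences between batches stayed at 0 under every alternative that could be run, including each library left out (lowest and highest 0). With a replicate block the count was also 0 for the 3 genotype contrasts. Deviations of same-numbered libraries correlated between −0.101 and 0.253, and those of other libraries of the same batch between −0.253 and 0.143. Where a group held 2 libraries in a batch, their deviations mirror each other, so this check cannot decide whether same-numbered libraries were paired. The block changed no call. The count within WT between batches, an alternative chosen after seeing the data, ranged from 0 (without WT 5) to 1 as single libraries were left out, and was 2 with all genes above 0 in 4 libraries. The count of exact permutation p-values under 0.05 ranged from 0 to 2 for Hom (main 0, and 2 without Hom 1). For Het it ranged from 0 to 2 (main 1, 0 without WT 4 or Het 5, and 2 without WT 5). With Het 3 in batch 2, whose libraries share the form of its label, the counts for the genotype contrasts and the differences between batches were 0.

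No value that turned direction passed the threshold, and the cause was not tested. In batch 2 alone the Hom change against WT was 0.35 for Gabra2, 0.031 for Gabra5, 0.041 for Gabra6 and 0.035 for Gabrb1, the Het change was 0.63 for Gabra2, 0.038 for Gabra5 and 0.033 for Gabrb1, and the Hom change against Het was 0.0024 for Gabrb1 and 0.033 for Gabrd. In batch 1 alone the Het change was −0.12 for Gabra3 and −0.061 for Gabrb2, which was −0.045 with array weights. Gabra5 in Hom against Het (0.01) was −0.015 with a pseudocount of 0.1, −0.0008 with median-ratio scaling, −0.055 with quantile normalisation, −0.003 with Het 3 in batch 2, −0.0037 with only the groups compared, −0.0011 in batch 1 alone, −0.0069 in batch 2 alone and −0.011 with array weights. Gabra6 in Hom against Het (0.02) was −0.024 with quantile normalisation, −0.025 without a batch term, −0.056 with Het 3 in batch 2, −0.0092 with only the groups compared, −0.08 in batch 1 alone and −0.0073 with the replicate block. With single libraries left out, the Het change ranged from −0.27 to 0.027 for Gabra2, −0.015 to 0.14 for Gabra3 and −0.018 to 0.16 for Gabrb2. The Hom change against Het ranged from −0.091 to 0.071 for Gabra5, −0.046 to 0.12 for Gabra6 and −0.23 to 0.021 for Gabrd. The difference of the Hom effect between batches ranged from −0.11 to 0.82 for Gabrb2, that of the Het effect from −0.14 to 0.53 for Gabrd, and the change between batches within WT from −0.54 to 0.14 for Gabrd.

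Mature minus immature subunits moved with the pseudocount, to −1.58 in WT, −1.99 in Het and −2.02 in Hom at 0.1 and to −1.29, −1.49 and −1.52 at 0.5. At 0.1 the libraries of WT split, with −0.98, −1.44 and −1.58 in WT 1 to 3 and −1.91 and −1.98 in WT 4 and 5, while Het 3 was at −1.04 and the other mutant libraries between −2.44 and −1.74. With Gabrb1 among the immature subunits the Hom mean was −1. The depth of single libraries is unknown, which limits Gabra5, Gabra6 and Gabrd most.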
